A study of Mus musculus with 20 samples.

Results

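The genes described here are 4 LIM homeobox genes (Lhx1, Lhx5, Lhx2 and Lhx9), 3 LIM-only genes (Lmo1, Lmo3 and Lmo4) and the 2 genes of the LIM domain-binding cofactors (Ldb1 and Ldb2). They are 9 of 22350 protein-coding gene records of the mouse annotation, chosen by family membership. The choice was made with earlier results of these data known, and Lhx6 and Lhx8 of the same family are not among the 9. For each gene the gene body with 50 kb either side was taken as its window on build mm9 (NCBIM37). The marked regions that the authors called in each window, and the bases those regions cover, were set side by side in wild-type and mutant tissue. The series profiled the embryonic mouse forebrain at embryonic day 13.5 by chromatin immunoprecipitation and sequencing. The histone marks H3K27ac, H3K4me1, H3K4me3 and H3K27me3 were precipitated from the medial ganglionic eminence (MGE) of C57BL/6 embryos, either Wildtype or Nkx2-1cKO (a conditional null mutant of Nkx2-1, called the mutant below). The transcription factors NKX2-1 and LHX6 were precipitated from the basal ganglia of Wildtype CD-1 embryos, so factor binding and marks come from different strains and dissections. The Cre driver of the mutant and the number of embryos pooled per library are not given in the sources used here. Each antibody and genotype has 1 library. No difference below has a replicate error or a p-value, and each describes these libraries. A covered length in bulk tissue also cannot tell apart fewer cells with a mark and less of the mark per cell.

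LIM homeobox proteins bind DNA through a homeodomain and carry a pair of LIM domains, zinc-binding folds that hold protein partners. LDB1 and LDB2 dimerize and bind LIM domains, which joins LIM homeodomain proteins into larger complexes and can bring enhancers to promoters. LIM-only proteins have LIM domains but no homeodomain, and they compete for or bridge LDB proteins. The MGE depends on NKX2-1 and, downstream of it, on the LIM homeodomain proteins LHX6 and LHX8, whereas LHX2, LHX9, LHX1 and LHX5 are best known from the cortex, the thalamus and the Cajal-Retzius cells. H3K27ac marks active promoters and enhancers, H3K4me1 marks enhancers, H3K4me3 marks promoters, and H3K27me3 marks chromatin held by Polycomb.

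Without duplicate tags, which the authors' peak caller left out, the libraries held 26.8 to 89.1 M tags (M, mega). Both H3K4me3 libraries were the shallowest and had the most duplicates, 28.3% of tags in wild type and 34.0% in the mutant. Over the whole genome the mutant lists covered 1.117 times as many bases as the wild-type lists for H3K27ac, 1.096 times for H3K4me1, 1.22 times for H3K4me3 and 1.32 times for H3K27me3, so a ratio above 1 is the ordinary case in these lists. H3K27ac near the start sites was used to check the dissection against marker genes. All 7 MGE markers carried it in both genotypes, with 61.3% to 100% of the bases within 2.5 kb of the starts covered in wild type and 6.61% to 100% in the mutant, Lhx6 being the lowest there. All 6 markers of the lateral and caudal eminences carried it too, from 1.74% to 71.7% in wild type and from 20.9% to 91.1% in the mutant. Of 5 pallial markers only Emx2 carried it, at 51.0% in wild type and 69.2% in the mutant, and Emx1, Tbr1, Eomes and Neurod6 were at 0 in both. Of 5 markers of the diencephalon and eminentia thalami 2 carried it in each genotype, at no more than 6.40%, and none of 3 endothelial and blood markers did. Among 3 microglial markers the highest value was 0.0434%.

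A gene was called changed for a mark where the covered lengths of its window differed by at least 1.5-fold and by at least 2 kb. By this rule 3 of the 9 genes rose in H3K4me3 in the mutant (Lhx5, Lhx9 and Ldb2), against 3.0% of all genes with the mark, and none fell, against 0.116%. None of these 3 calls held when the mutant list was reduced to its strongest regions until it covered as many bases as the wild-type list, where 0.0807% of all genes were called higher. In H3K27me3, 2 of the 8 genes with the mark rose (Lmo1 and Lmo3), against 8.10%, and none fell, against 0.696%. H3K27ac rose at 1 of 9 (Ldb2), against 4.27%, and fell at 1 of 9 (Lhx1), against 1.55%. H3K4me1 rose at 1 of 9 (Ldb2), against 2.09%, and fell at none, against 0.604%. The median covered length of H3K4me3 in wild type was 8.37 kb over the 9 genes and 4.77 kb over all genes. A difference of 2 kb is reached more easily in windows with more mark, and in longer ones such as those of Ldb2 (428 kb) and Lmo3 (319 kb). Of the 3 genes called in H3K4me3, Lhx5 (7.01 kb) and Lhx9 (6.72 kb) were above the median of all genes and Ldb2 (2.85 kb) was below it. All 3 were below the median of the 9. The direction of H3K4me3 was shared with the rest of the genome, since its ratio was above 1 at 9 of 9 genes and at 17681 of 18526 genes. The median log2 ratio of mutant to wild type was 0.42 over the 9 genes and 0.17 over all genes for H3K4me3, and 0.33 and 0.09 for H3K27ac. For H3K27me3 the order was the opposite, with 0.07 over the 8 genes and 0.28 over all genes.

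**Figure D1:**
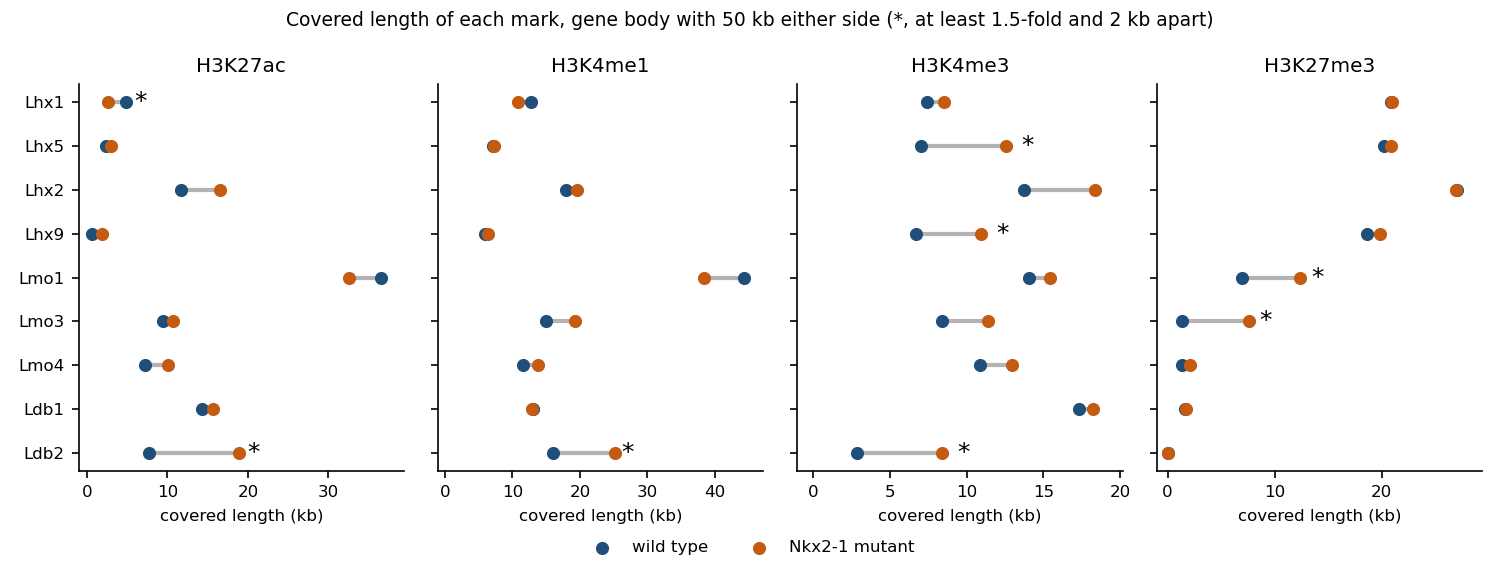
Covered length in kb (x axes) of the 4 marks in the window of each gene (rows), in the wild-type library (blue) and the mutant library (orange), with 1 library per point; an asterisk marks a difference of at least 1.5-fold and 2 kb. Ldb2 is marked in H3K27ac, H3K4me1 and H3K4me3, Lhx5 and Lhx9 in H3K4me3, Lmo1 and Lmo3 in H3K27me3, and Lhx1 is the only gene marked for a lower value, in H3K27ac.

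**Figure D2:**
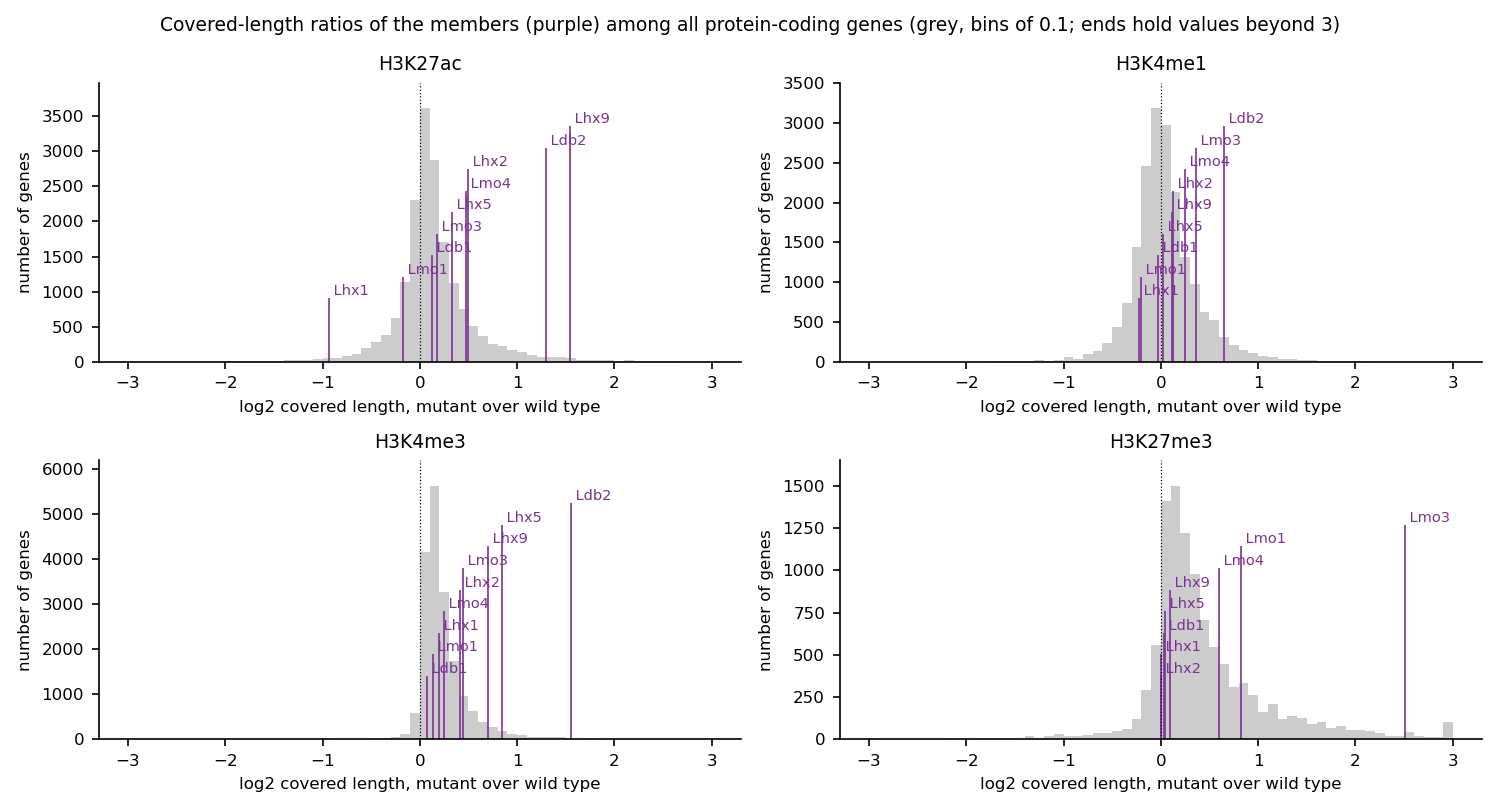
Distribution over all protein-coding genes of the log2 ratio of mutant to wild-type covered length (x axis) for each mark, with the genes described here as labelled purple lines. Lhx9 (1.54, on under 2 kb of the mark) and Ldb2 (1.30) lie far to the right for H3K27ac, Ldb2 for H3K4me3 (1.55) and Lmo3 for H3K27me3 (2.51), while the body of the H3K4me3 distribution itself lies to the right of 0.

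Counted by regions, the 9 windows held 76 wild-type and 100 mutant H3K27ac regions. Of the wild-type regions 12 were lost, meaning that no base of them was overlapped by a mutant region, and of the mutant regions 34 were gained, meaning the reverse. These are 15.8% and 34.0%, beside 19.4% and 29.6% over all H3K27ac regions. For H3K4me1 24 of 170 were lost (14.1%, beside 15.2%) and 35 of 171 gained (20.5%, beside 23.8%). For H3K27me3 8 of 47 were lost (17.0%, beside 15.7%) and 22 of 49 gained (44.9%, beside 46.6%). For H3K4me3 2 of 54 were lost (3.70%, beside 3.65%) and 26 of 70 gained (37.1%, beside 28.1%). Most of these shares lie near those of the whole lists, so the changes at these genes are better seen gene by gene.

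Lhx1 (chromosome 11, 84331479-84338923, minus strand) encodes a LIM homeodomain protein of the head organizer, the kidney and Cajal-Retzius cells. Its H3K27ac covered 4.90 kb in wild type against 2.58 kb in the mutant, a ratio of 0.525 (log2 -0.93). Of 7 wild-type regions 5 had no counterpart in the mutant, and none was gained. The lost regions were short, from 250 to 618 bases, and 1 of 487 bases lay 0.3 kb upstream of the start with an authors' fold enrichment of 3.45 (the ratio of ChIP to control at the summit; folds are the authors' values throughout). The strongest lost region, chr11:84309315-84309679, had a fold of 4.37 and lay 29.4 kb downstream of the start, inside the neighbouring gene Aatf. The lost regions 28.4 and 43.1 kb downstream also lay in Aatf. The strongest wild-type region, 11.7 kb downstream, remained. It overlapped Aatf and H3K4me3 in both genotypes, and measured 1442 bases at a fold of 9.64 in wild type and 1716 bases at 11.1 in the mutant. Around the start sites H3K27me3 covered 100% of the bases within 2.5 kb in both genotypes, H3K4me3 54.8% in wild type and 63.8% in the mutant, and H3K27ac 6.32% and 0%. The lost H3K27ac regions were thus weak. Of the 5, only the 1 near the start lay on H3K27me3, in both genotypes. Values of this window can belong to Aatf as well as to Lhx1. The call did not hold when regions had to reach −log10 p of 10 (log2 -0.54; 4 of the 5 lost regions lie below this limit), or with flanks of 25 kb (-0.57) or 10 kb (-0.17). With the window ending halfway to the neighbouring gene the log2 ratio was -1.57, from 2.56 kb in wild type against 0.859 kb in the mutant, and the difference was below 2 kb.

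Lhx1 had 1 NKX2-1 peak in its window, 24.1 kb upstream of the start at chr11:84362909-84363160 (fold 3.81). It carried none of the 4 marks in either genotype. The 200 bases at its summit are shown as a peak of NKX2-1 that lacks the core of NK2 homeodomains (CACTTGA or CACTCAA, either strand) and holds 3 cores of LIM homeodomains (TAATTA or TAATGA, either strand), in capitals, of which the first and the next overlap. The sequence is the plus strand of the NCBIM37 reference.
Lhx1 chr11:84362940-84363139: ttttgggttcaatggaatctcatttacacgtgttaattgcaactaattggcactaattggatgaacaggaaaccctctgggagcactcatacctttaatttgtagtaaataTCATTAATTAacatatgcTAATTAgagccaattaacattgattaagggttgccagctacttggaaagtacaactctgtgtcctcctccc

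Lhx5 (chromosome 5, 120881895-120891466, plus strand) encodes the closest relative of LHX1, with roles in the hippocampus, Cajal-Retzius cells and the hypothalamus. Its H3K4me3 covered 7.01 kb in wild type compared with 12.5 kb in the mutant, a ratio of 1.79 (log2 0.84), which is rank 154 among all genes by the rise in kb. Regions numbered 9 in wild type and 12 in the mutant, and 4 of the mutant regions were gained. The regions within 2.5 kb of the start measured 0.824 kb in wild type against 4.47 kb in the mutant, with 3 of the 4 gained ones, those elsewhere in the gene body 3.77 kb against 4.76 kb, and those in the flanks 2.41 kb against 3.30 kb. Within 2.5 kb of the start the mark covered 16.5% of the bases in wild type and 75.04% in the mutant. H3K27me3 covered 100% of the same bases in both genotypes, and H3K27ac covered 0% in both. Over the whole window H3K27me3 measured 20.2 kb in wild type against 20.8 kb in the mutant.

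Nearly all of the new H3K4me3 at Lhx5 lay on bases that already had H3K27me3. Of 5.61 kb of H3K4me3 found only in the mutant, 5.20 kb was under H3K27me3 in wild type. All 4 gained regions overlapped it, beside 7.53% of the 12251 H3K4me3 regions gained in the whole mutant list. The whole-list share is not a like comparison. From 4 kb upstream to 10 kb downstream of the start, H3K27me3 already covered 12.6 of 14 kb in wild type. Most H3K4me3 gained there had to fall on it, and 67.3% of the wild-type H3K4me3 in the window already did. The length marked by both H3K4me3 and H3K27me3 was 4.72 kb in wild type compared with 9.91 kb in the mutant. The 2 H3K27ac regions of the wild-type window lay 22.2 and 38.1 kb upstream, remained in the mutant, and were joined by 1 gained region of 313 bases at chr5:120847902-120848214. The H3K4me3 region over the Lhx5 start itself measured 824 bases at a fold of 6.18 in wild type and 2281 bases at 12.6 in the mutant.

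Lhx5 had 2 NKX2-1 peaks, 45.3 and 51.8 kb downstream of its start, at folds of 3.73 and 4.19. Both lie in the gene Sds, the second also in Plbd2, and carried no mark in either genotype. Both hold the NK2 core, with 2 copies in the first and 1 in the other, and no LIM core.

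Lhx9 (chromosome 1, 140721763-140745153, minus strand) encodes a LIM homeodomain protein of the thalamus, the pallium and the gonad. Its H3K4me3 covered 6.72 kb in wild type against 10.9 kb in the mutant, a ratio of 1.63 (log2 0.70). No base of the wild-type mark was outside the mutant mark, and of 4.20 kb found only in the mutant 3.98 kb lay on wild-type H3K27me3. The 2 gained H3K4me3 regions were weak, at a fold of 4.36 each, so that most of the added length came from widening. H3K27me3 stood in 4 regions of 18.6 kb in wild type and in 1 unbroken region of 19836 bases in the mutant. The length under both marks was 5.83 kb in wild type compared with 10.04 kb in the mutant.

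H3K27ac at Lhx9 covered 0.642 kb in 1 wild-type region and 1.87 kb in 4 mutant regions. The ratio of 2.91 was not called, because the difference was below 2 kb. The region common to both genotypes lay at the downstream start sites of the gene, 642 bases at a fold of 3.68 in wild type and 990 bases at 4.81 in the mutant. The strongest of the 3 gained regions, chr1:140753109-140753358 (250 bases, fold 4.46), lay 8.1 kb upstream, inside 2310009B15Rik. Neither factor had a peak in the window.

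Lhx2 (chromosome 2, 38194801-38225253, plus strand) encodes the selector of cortical identity and is needed for the eye. It carried the most H3K27me3 of the 9 genes, 27.01 kb in wild type and 26.97 in the mutant, and at the same time 11.7 kb of H3K27ac in wild type against 16.5 kb in the mutant (ratio 1.41). H3K4me3 covered 13.8 kb in wild type compared with 18.4 kb in the mutant (ratio 1.34). Neither difference reached 1.5-fold. H3K27ac regions numbered 7 in wild type, none of them lost, and 12 in the mutant, of which 7 were gained.

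At Lhx2 the active and the Polycomb mark lay on the same bases. In wild type 9.06 kb of H3K27ac, 77.3% of it, was under H3K27me3, and in the mutant 12.3 kb or 74.3%. The H3K27ac at the middle of the gene formed regions of 3989 and 3910 bases in wild type (folds 8.72 and 7.46) and a single region of 8869 bases in the mutant (fold 11.9). The strongest gained region, chr2:38214147-38215044, had 898 bases and a fold of 5.63 in an intron 19.8 kb from the start. Of 4.63 kb of mutant-only H3K4me3, 4.49 kb lay on wild-type H3K27me3. As at Lhx5 and Lhx9, H3K27me3 already covered most of the start-site bases in wild type (87.1% at Lhx2), so this position was largely set. Bulk tissue does not show whether these marks lie on the same chromosomes or in different cells. No factor peak was found in the window. Lhx2 and Lhx9 are also genes of the pallium. The pallial marker Emx2 had 51.0% of its start-site bases under H3K27ac in wild type and 69.2% in the mutant, while the other 4 pallial markers were at 0 in both, and the part of pallial cells in these values was not tested.

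**Figure D3:**
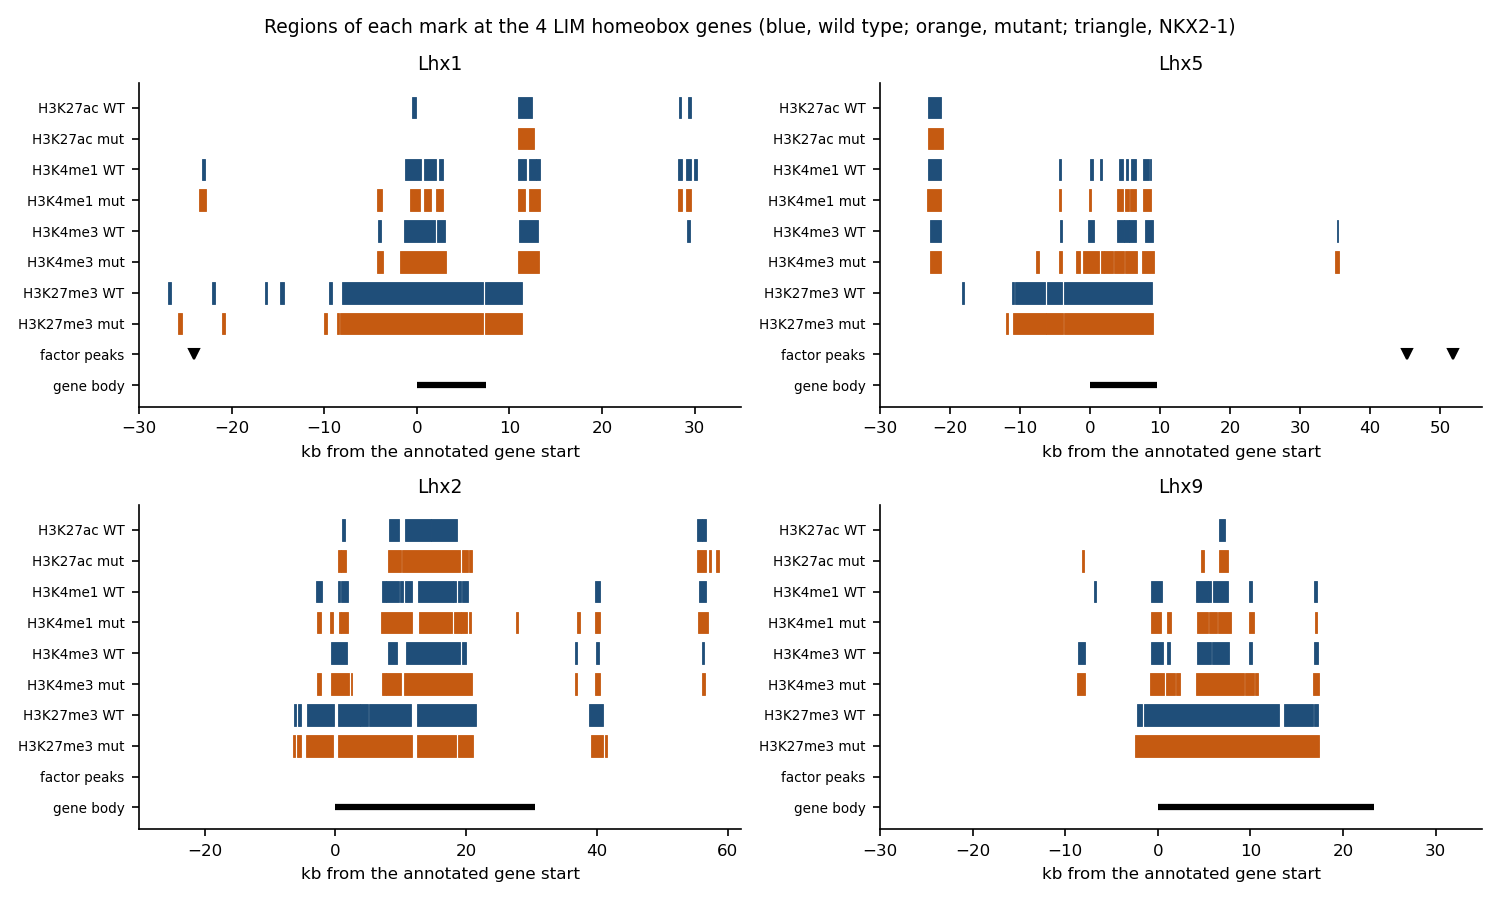
Regions of each mark at Lhx1, Lhx5, Lhx2 and Lhx9 by distance in kb from the annotated gene start in the direction of transcription (x axes), in wild type (blue) and the mutant (orange), with triangles for NKX2-1 peaks and a bar for the gene body; outer parts of the windows are left out. H3K27me3 spans the gene start in both genotypes at Lhx1, Lhx5 and Lhx9 and leaves a gap at the outermost start of Lhx2, H3K4me3 widens over it at Lhx5 and Lhx9 in the mutant, and the H3K27ac region at the Lhx1 start is found in wild type alone.

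The 4 LIM homeobox genes therefore shared H3K27me3 over 87.1% to 100% of their start-site bases in wild type and 87.9% to 100% in the mutant, a state that none of the LIM-only or LDB genes had. The H3K4me3 calls at Lhx5 and Lhx9 were lost at equal covered length of the lists, where the log2 ratios were 0.36 and 0.28. With both lists reduced to the same smaller length the log2 ratio of Lhx5 was -0.0039.

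Lmo1 (chromosome 7, 116282086-116313822, minus strand) encodes a LIM-only protein known as an oncogene of T-cell leukaemia and neuroblastoma. It was the most heavily acetylated of the 9 genes, with 36.6 kb of H3K27ac in wild type against 32.5 kb in the mutant (ratio not called). H3K4me1 covered 44.2 kb in wild type compared with 38.4 kb in the mutant, below the call in fold, although a fall of this many bases is rank 80 among all genes. H3K27me3 covered 6.998 kb in wild type against 12.4 kb in the mutant, a ratio of 1.77 (log2 0.83), and this gain was called. It lay upstream of the gene: the 30 kb before the start held 6.75 kb in 13 wild-type regions and 11.9 kb in 9 mutant regions. The longest mutant region had 4879 bases at a fold of 8.15, centred 17.5 kb upstream, where the longest wild-type region had 2021 bases at a fold of 4.54.

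The upstream stretch of Lmo1 is also where H3K27ac differed. Of 6 lost H3K27ac regions 3 lay there, all 3 on H3K27me3 in both genotypes, including the strongest, chr7:116328846-116329303 (458 bases, fold 4.71, 15.3 kb upstream). Over all lost H3K27ac regions 3.75% lay on wild-type and 6.09% on mutant H3K27me3. The comparison is not like for like, since the stretch already held 13 H3K27me3 regions in wild type. At the start itself H3K27ac covered 82.1% of the bases within 2.5 kb in wild type and 57.3% in the mutant, and H3K4me3 covered 100% and 88.3%, while H3K27me3 was at 5.06% and 4.999%. The only 2 gained H3K27ac regions included chr7:116279773-116280073, with 301 bases at a fold of 4.22. The H3K27me3 call at Lmo1 was lost at equal covered length of the lists and with 10 kb flanks.

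Lmo1 had more factor peaks than any of the other genes: 5 of NKX2-1 and 1 of LHX6. All 6 lay on H3K27ac and H3K4me1 in both genotypes. The strongest of each factor overlapped 21 kb upstream of the start, NKX2-1 at chr7:116334621-116335667 (fold 5.48, −log10 p 24.0) and LHX6 at chr7:116334764-116335204 (fold 6.69, −log10 p 27.6). In the 7 kb around these peaks, from 25 to 18 kb upstream, H3K27ac covered 4.66 kb in wild type compared with 3.72 kb in the mutant, with no lost region, so the bound site stayed acetylated in the mutant. The remaining 4 NKX2-1 peaks lay 6.2 kb upstream and from 40.2 to 59.1 kb downstream of the start, at folds of 3.203 to 4.49. The LHX6 summit is shown as the site bound by both factors, with its single LIM core in capitals, on the plus strand of NCBIM37.
Lmo1 chr7:116334883-116335082: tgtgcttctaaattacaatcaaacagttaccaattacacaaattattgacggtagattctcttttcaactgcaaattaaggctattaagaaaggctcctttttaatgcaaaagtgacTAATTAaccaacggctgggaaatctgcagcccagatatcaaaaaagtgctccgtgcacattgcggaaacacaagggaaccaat

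Lmo3 (chromosome 6, 138311439-138530489, minus strand) encodes a neuronal LIM-only protein found in the cortex, the striatum and cortical interneurons. The gene record is 219 kb long with 8 annotated starts, and its active promoter marks lie deep inside it. Between 150 and 170 kb from the outermost start H3K27ac covered 8.48 kb in wild type against 9.42 kb in the mutant, and H3K4me3 8.37 kb and 9.84 kb. Over the whole window H3K27ac covered 9.49 kb and 10.7 kb. H3K4me1 covered 15.0 kb in wild type compared with 19.3 kb in the mutant, with 3 regions lost and 11 gained. None of these differences reached the call.

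H3K27me3 at Lmo3 rose from 1.33 kb in 2 wild-type regions to 7.61 kb in 11 mutant regions, a ratio of 5.71 (log2 2.51). Most of the added length was at the outermost start. Within 10 kb of the outermost start the mark covered 1.33 kb in wild type against 6.41 kb in the mutant, in 9 regions of which 7 were gained, and H3K27ac was absent there in both genotypes. The other 2 gained regions, of 628 and 564 bases at a fold of 3.73, lay at and beyond 159.2 kb, over H3K27ac and H3K4me3. All 11 mutant regions were weak, with folds of 3.04 to 5.39. With both lists reduced to the same length the gene was not called.

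Lmo3 was bound by both factors at the inner promoters, 2 NKX2-1 and 2 LHX6 peaks between 157.0 and 161.9 kb from the outermost start. All 4 lay in introns and on H3K27ac, H3K4me1 and H3K4me3 in both genotypes. An NKX2-1 peak at chr6:138373389-138373638 (fold 3.88) and an LHX6 peak at chr6:138373397-138373654 (fold 3.22) overlapped within 0.3 kb of an annotated start. The strongest peak of NKX2-1, chr6:138369172-138369534 (fold 5.55, −log10 p 24.8), was 0.4 kb from another start, and the strongest of LHX6, chr6:138368424-138368746 (fold 4.76), was 1.2 kb from it. The summits of the shared and of the strongest NKX2-1 peak are shown because the acetylation at both was present in the mutant; they hold 3 LIM cores and 1, in capitals, and no NK2 core, on the plus strand of NCBIM37.
Lmo3 shared chr6:138373411-138373610: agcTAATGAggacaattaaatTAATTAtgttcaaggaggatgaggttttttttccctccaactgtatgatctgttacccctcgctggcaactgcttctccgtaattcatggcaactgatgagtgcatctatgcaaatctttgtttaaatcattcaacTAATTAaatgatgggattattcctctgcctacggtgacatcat
Lmo3 strongest chr6:138369244-138369443: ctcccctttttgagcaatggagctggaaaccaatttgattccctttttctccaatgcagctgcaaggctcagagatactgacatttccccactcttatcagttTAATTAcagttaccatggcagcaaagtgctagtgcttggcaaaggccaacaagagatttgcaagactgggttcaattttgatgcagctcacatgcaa

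Lmo4 (chromosome 3, 143851494-143868184, minus strand) encodes a LIM-only protein of many epithelia and of cortical and ventral forebrain neurons. It had no factor peak. H3K27ac covered 7.21 kb in wild type compared with 10.03 kb in the mutant (ratio 1.39), and none of its 7 wild-type regions was lost. The region over the start measured 2990 bases at a fold of 13.3 in wild type and 4020 bases at 15.6 in the mutant. Of 3 gained regions the strongest, chr3:143849512-143849995 (484 bases, fold 5.28), lay just downstream of the gene. H3K4me1 covered 11.6 kb in wild type against 13.8 kb in the mutant, H3K4me3 10.9 kb and 12.9 kb, and H3K27me3 1.39 kb and 2.098 kb. No mark reached the call, although all 4 were longer in the mutant.

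**Figure D4:**
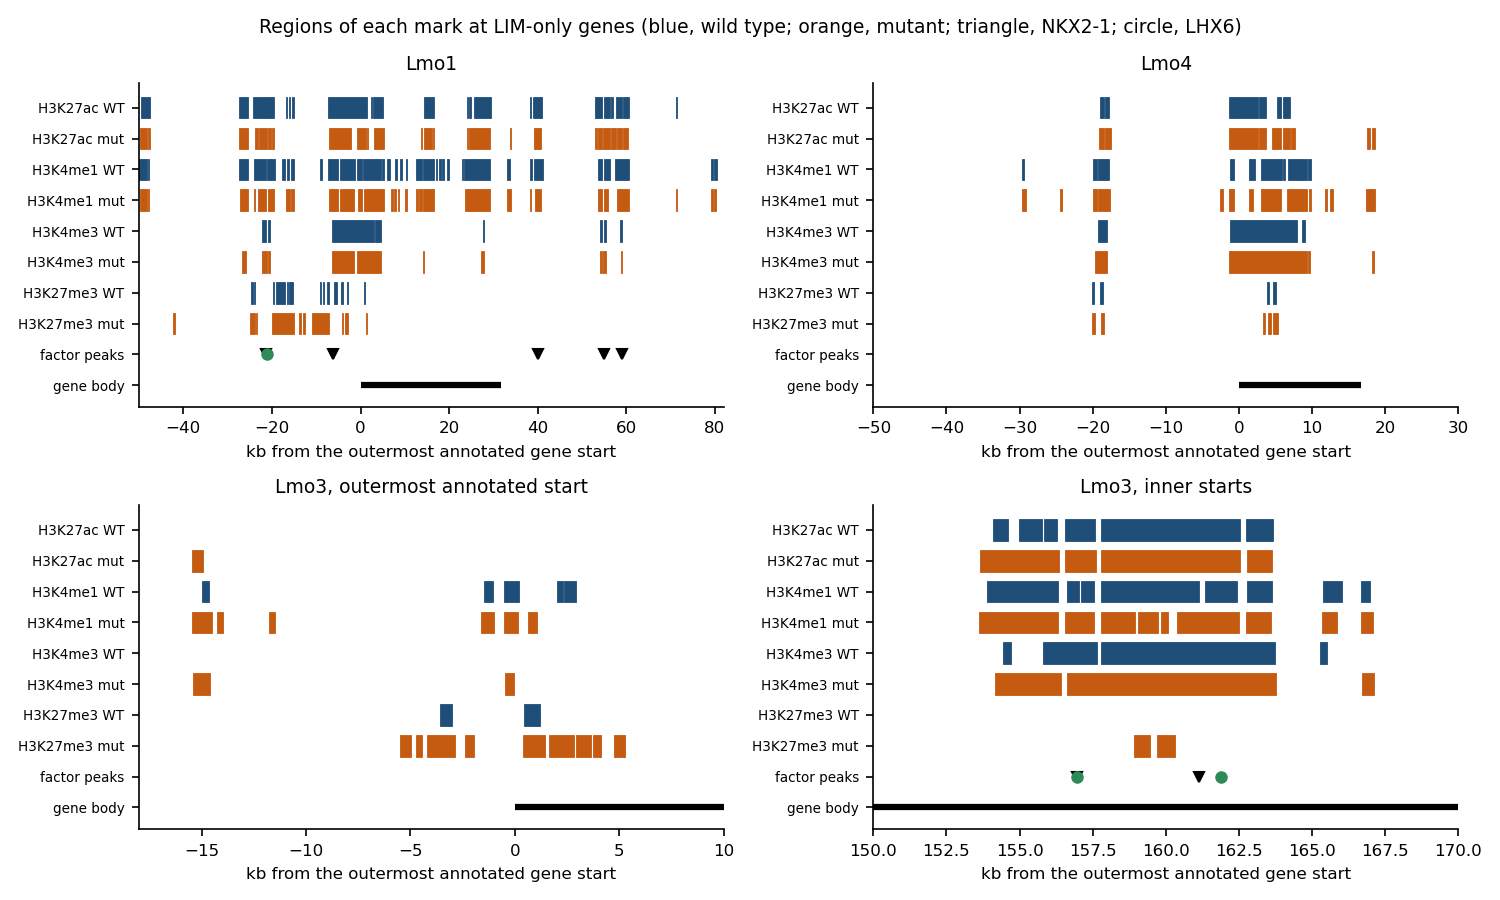
Regions of each mark at the LIM-only genes by distance in kb from the outermost annotated gene start in the direction of transcription (x axes), in wild type (blue) and the mutant (orange), with factor peaks and the gene body below. At Lmo1 the H3K27me3 regions upstream of the start are longer in the mutant, and at Lmo3 H3K27me3 spreads around the outermost start while the acetylated promoters lie near 160 kb.

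Ldb1 (chromosome 19, 46107083-46119704, minus strand) encodes the broadly expressed LIM-binding cofactor that most LIM homeodomain proteins use. It was the least changed of the 9 genes by region: none of its regions of any mark was lost and none gained. H3K27ac covered 14.4 kb in wild type compared with 15.7 kb in the mutant, H3K4me1 13.1 and 12.9 kb, H3K4me3 17.3 and 18.2 kb, and H3K27me3 1.63 and 1.68 kb. Within 2.5 kb of its starts H3K27ac covered 61.9% of the bases in wild type and 65.5% in the mutant, and H3K27me3 was at 0. The window also holds 9130011E15Rik, Hps6, Nolc1 and Pprc1. The 2 NKX2-1 peaks of the window (folds 4.64 and 3.28) lie 11.2 and 30.7 kb upstream, at Pprc1 and Nolc1, with H3K27ac and H3K4me3 in both genotypes and neither motif core.

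Ldb2 (chromosome 5, 44863372-45190946, minus strand) encodes the second LIM-binding cofactor, which is more restricted to neurons and endothelium. It was called in 3 of 4 marks, all longer in the mutant. H3K27ac covered 7.71 kb in wild type against 18.9 kb in the mutant, a ratio of 2.46 (log2 1.30), rank 92 among all genes by the rise in kb. H3K4me1 covered 16.1 kb and 25.2 kb, a ratio of 1.57 (log2 0.65), and H3K4me3 2.85 kb and 8.38 kb, a ratio of 2.94 (log2 1.55). H3K27me3 was absent from the 428 kb window in both genotypes. The endothelial and blood markers carried no H3K27ac in either genotype.

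The rise at Ldb2 came from many separate regions inside the gene. H3K27ac regions numbered 12 in wild type, of which 1 was lost, and 28 in the mutant, of which 17 were gained and 16 of these lay in the gene body. Between 70 and 160 kb from the start, a stretch chosen after its values were seen, H3K27ac stood in 5 wild-type regions covering 3.94 kb and in 16 mutant regions covering 12.3 kb. In the same 90 kb H3K4me1 covered 9.17 kb in wild type compared with 15.1 kb in the mutant, and H3K4me3 0.268 kb and 4.25 kb. The strongest gained region, chr5:45097506-45098971, had 1466 bases at a fold of 7.85 in an intron 92.7 kb from the start. At the promoter the change was smaller: H3K27ac covered 20.02% of the bases within 2.5 kb in wild type and 29.8% in the mutant, and H3K4me3 45.4% and 57.7%.

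Most gained H3K27ac regions at Ldb2 touched H3K4me1 that already stood in wild type. Of 17 gained regions 11 (64.7%) overlapped wild-type H3K4me1, beside 47.9% of the 19917 regions gained in the whole list. In bases, 4.45 kb of 11.8 kb of mutant-only H3K27ac was on wild-type H3K4me1. Of 9 gained H3K4me3 regions 8 overlapped mutant H3K27ac, beside 56.6% of the 12251 gained in the whole list. With wild-type H3K27ac 5 of the 9 overlapped, beside 40.7%. In 200 bases at their summits 5 of the 17 gained H3K27ac regions (29.4%) held a LIM core, beside 12.01% of all gained H3K27ac summits. The 2 sets were not matched for base composition. Windows 1 kb to the sides of NKX2-1 and LHX6 summits held the core at 14.9% and 17.3%. The direction of H3K27ac held in all 6 alternatives that change the region lists or the window, with log2 ratios from 0.97 to 2.18. H3K4me3 did not: at equal covered length of the lists its log2 ratio was -0.20, and the H3K4me1 call was lost there too. The strongest gained H3K27ac region already overlapped H3K4me1 in wild type. The sequence at its summit is shown, holds neither core and is on the plus strand of NCBIM37.
Ldb2 gained chr5:45098436-45098635: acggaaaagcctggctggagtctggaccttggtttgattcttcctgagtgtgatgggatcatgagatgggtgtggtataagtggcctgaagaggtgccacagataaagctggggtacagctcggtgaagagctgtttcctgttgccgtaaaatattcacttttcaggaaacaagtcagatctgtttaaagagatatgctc

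The one H3K27ac region of Ldb2 that was lost held the only LHX6 peak of the gene. The peak, chr5:44865305-44865809, had a fold of 6.05 and −log10 p of 23.2 and lay in an intron 325 kb from the start, near the end of the gene. The wild-type H3K27ac region there, chr5:44865620-44865884, was short and weak (fold 2.99), and a wild-type H3K4me1 region of 331 bases (fold 4.19) overlapped the peak as well. In the mutant no mark was called on the peak. It was the only one of the 16 factor peaks in the 9 windows that lay in a lost H3K27ac region. The share of all factor peaks in lost regions is not given here. The H3K27ac region at this LHX6 peak has a −log10 p of 6.16, below the stricter limit of 10. The summit is shown because of this loss; 2 LIM cores stand directly one after the other, in capitals, on the plus strand of NCBIM37.
Ldb2 LHX6 chr5:44865535-44865734: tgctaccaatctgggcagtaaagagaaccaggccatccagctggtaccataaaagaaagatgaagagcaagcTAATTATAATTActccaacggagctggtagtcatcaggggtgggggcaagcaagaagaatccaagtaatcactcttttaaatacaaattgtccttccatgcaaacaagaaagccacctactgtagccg

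**Figure D5:**
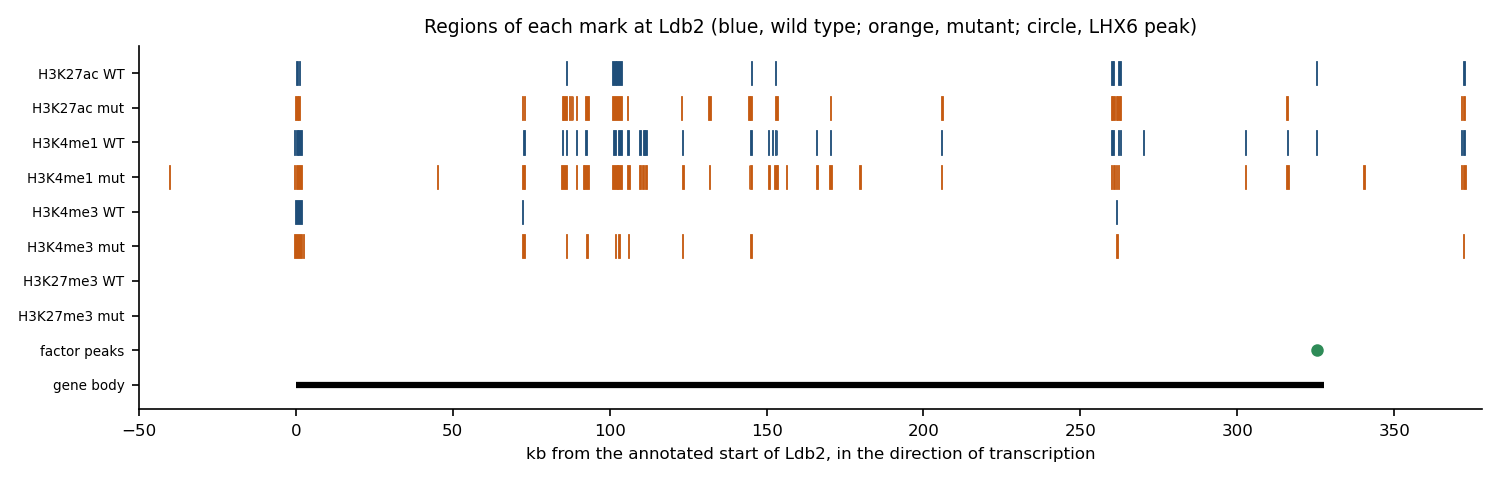
Regions of each mark along Ldb2 by distance in kb from the gene start in the direction of transcription (x axis), in wild type (blue) and the mutant (orange), with factor peaks and the gene body below. The mutant H3K27ac regions cluster between 70 and 160 kb, and the LHX6 peak at 325 kb has H3K27ac and H3K4me1 in wild type alone.

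Across the 9 windows there were 12 NKX2-1 peaks at 5 genes and 4 LHX6 peaks at 3 genes. Over all genes 31.5% had an NKX2-1 peak in the same kind of window and 4.06% an LHX6 peak. These shares were not adjusted for window length, and a longer window holds a peak more easily. The longest windows of the 9, Ldb2 (428 kb) and Lmo3 (319 kb), held all LHX6 peaks except the 1 at Lmo1. Lhx2, Lhx9 and Lmo4 had neither. Of the NKX2-1 peaks 9 lay on H3K27ac in wild type and 9 in the mutant, none of them in a lost region, and the 3 without it were those of Lhx1 and Lhx5. Of the LHX6 peaks 4 lay on H3K27ac in wild type and 3 in the mutant. The shares over all peaks of each factor are not given here, so these counts cannot be called usual or unusual.

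The NK2 core was found at 3 of the 12 NKX2-1 summits and the LIM core at 6, while 4 had neither. Over all 5683 NKX2-1 summits the shares were 21.4% for the NK2 core and 25.7% for the LIM core, beside 4.91% and 14.9% in windows 1 kb to the sides. Of the 4 LHX6 summits 3 held the LIM core and none the NK2 core, beside 41.5% and 8.42% over all 1651 LHX6 summits and 17.3% and 5.45% to the sides. The NKX2-1 peaks on acetylated chromatin at Lmo1 and Lmo3 held the LIM core in 5 of 7 and the NK2 core in 1 of 7. The 2 at Ldb1, also on acetylated chromatin, held neither. These are matches of short letters, and they show neither a binding site nor which protein was bound.

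The other genes of the family and their partners were taken as a list of 13: Lhx3, Lhx4, Lhx6, Lhx8, Isl1, Isl2, Lmx1a, Lmx1b, Lmo2, Ssbp2, Ssbp3, Ssbp4 and Rlim. H3K27ac rose at 1 and fell at 2 of them, beside 4.27% and 1.55% of all genes with the mark. H3K4me1 rose at none and fell at 2, beside 2.09% and 0.604%. H3K4me3 rose at 1 and fell at 2, beside 3.0% and 0.116%. H3K27me3 rose at 1 and fell at none, beside 8.10% and 0.696%. Only Lhx6 and Lhx8, the LIM homeobox genes of MGE neurons, were called in at least 2 marks, and both fell in 3. H3K27ac at Lhx6 covered 33.4 kb in wild type against 4.73 kb in the mutant, and at Lhx8 10.9 kb and 1.11 kb. None of the 9 genes lost active marks on this scale, the lowest H3K27ac ratio among them being 0.525 at Lhx1.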

How the data were processed

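Peak lists of 10 chromatin immunoprecipitation libraries, 1 per antibody and genotype, were used. Per the submitters' processing notes, the tools of the authors were BWA 0.6.2, MACS2 2.1.0, CASAVA 1.8.2 and bcl2fastq 1.8.4, and the build was mm9. Per the file headers, regions were called with MACS 2.1.0.20140616 at a p-value of 1e-05, with tags extended to 250 bases and 1 tag kept per position; 1 input per genotype served 3 marks and a separate one H3K4me3. The deposited columns are the pileup signal, the fold enrichment (the authors' ratio over control) and the −log10 p-value. They were used only to describe regions within a list and for 1 stricter limit. The deposited q-values are stated in the headers as not calculated and were not used.

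Of 20 samples, 10 have lists; the 10 inputs and IgG controls were not analysed here. Summits of 1 region were merged, and chromosomes 1 to 19 and X were kept. Windows are gene bodies of GENCODE vM1 with 50 kb either side. Covered bases, overlaps (at least 1 base) and motif matches came from Python 3.11.15 with pandas 2.3.3, numpy 2.4.6, pysam 0.24.0 and bedtools 2.31.1 (figures, matplotlib 3.10.9). Covered bases in 300 simulated windows and 8 sets of lost or gained regions against bedtools gave 0 mismatches. Named regions are the strongest lost and gained H3K27ac region of each gene by −log10 p and every factor peak; the other genes of the family are named with values where called in at least 2 marks. Alternatives were the p limit, the flanks, the window, the overlap, the call rule and equal covered length of the lists. The genes, lists and rules were chosen with earlier results of these data known. The stretches described at single genes and the sequence of the gained Ldb2 region were chosen after their values were seen.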

Additional observations from a re-analysis of the deposited data

How the results depend on the processing

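With 1 library per group no replicate could be left out. No paired analysis was possible because each mark has 1 library per genotype and the shared numbers belong to inputs. The H3K27ac loss (Lhx1) left 0 genes called at −log10 p of at least 10, with 25 or 10 kb flanks, to the midpoint of the neighbouring gene, at 2-fold, and with both lists reduced to the same length, an alternative chosen after seeing the data. With the looser fold and a difference of 1 kb, 4 genes were called higher in H3K27ac (13.7% of all genes with the mark), 2 in H3K4me1 (9.99%) and 5 in H3K4me3 (15.4%), and at 2-fold 0 in H3K4me1 (0.415%), 1 in H3K4me3 (Ldb2; 0.746%) and 1 in H3K27me3 (Lmo3; 5.16%). At equal covered length the count was 0 for H3K4me1 (0.957%) and H3K4me3 (0.0807%) and 1 for H3K27me3 (Lmo3; 2.27%), and the log2 ratio of H3K4me3 at Ldb2 turned to -0.20. With both lists reduced it was 0 for H3K4me3 (0.423%), where Lhx5 turned to -0.0039, and 1 for H3K27me3 (Lmo1, log2 2.73; 2.87%). With 10 kb flanks 1 gene was called in H3K27me3 (Lmo3; 6.43%). At −log10 p of at least 10 2 of 57 H3K27ac regions were lost (10.5% over all regions) and 15 of 71 gained (18.9%), 7 of 116 H3K4me1 regions lost (6.52%) and 10 of 111 gained (10.8%), 1 of 23 H3K27me3 regions lost (6.71%) and 2 of 23 gained (24.4%), and 1 of 47 H3K4me3 regions lost (1.86%). The shorter lists leave fewer regions to count; other causes were not tested. The H3K27ac and H3K4me1 directions at Ldb2 and the H3K27me3 directions at Lmo1 and Lmo3 held wherever a ratio could be computed. The effect of depth on these counts was not tested.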

Other observations

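The protein-coding genes with the most similar windows were sought for each gene by the summed absolute difference, in percentage points, of the 8 covered shares (4 marks in 2 genotypes), leaving out genes with overlapping windows. The match for Lhx1 was another LIM homeobox gene, Lmx1b, at a summed difference of 10.3 points. For Ldb2 it was Kif6 at 2.25 points, with Iqcj next at 2.60. The H3K27ac share of the window was 2.06% and 4.73% at Kif6 and 1.27% and 4.50% at Iqcj, wild type first. For Lmo1 it was Nfam1 at 15.6 points, where H3K27me3 covered 5.35% of the window in wild type and 11.8% in the mutant. All these shares are among the 8 used to pick the matches. Their likeness to Ldb2 and Lmo1 is therefore built in and is no separate result. The others were Gm10735 for Lhx5 (7.07), Gm1337 for Lhx2 (8.64), Golga4 for Lhx9 (4.57), Slc23a2 for Lmo3 (2.84), Mink1 for Lmo4 (4.25) and Ppox for Ldb1 (3.76). Windows of neighbouring genes share regions, so a match can rest on another gene nearby.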
